A study of Homo sapiens with 2 samples.

Results

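XBP1 and 9 genes of protein folding in the endoplasmic reticulum (ER) were examined in EOL-1, an established line of human eosinophilic leukaemia whose growth is driven by the fusion kinase FIP1L1-PDGFRA. The 10 genes were chosen by name (XBP1, SDF2L1, MANF, HSPA5, HSP90B1, DNAJB9, DNAJC3, HERPUD1, PDIA4 and CRELD2), out of 19775 genes with a probe set that the platform annotation ties to 1 gene symbol. One culture was given 100 nM Glivec (imatinib, an inhibitor of the PDGF receptor, KIT and ABL kinases) for 4 h and the other was left untreated. Both cultures were of the same line and both carry the fusion. Each was measured on 1 Affymetrix array, so no difference below has a replicate check, none was tested between the groups and no p-value is given.

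The ER is where secreted and membrane proteins fold. When unfolded proteins accumulate there, the membrane sensor IRE1 (ERN1) splices XBP1 mRNA, and the spliced form encodes a transcription factor that raises genes of folding, secretion and disposal. The sensors ATF6 and PERK (EIF2AK3) drive overlapping parts of this unfolded protein response. In the eosinophil lineage XBP1 is known to be needed for differentiation, when cells make large amounts of granule protein. The signals give the amount of message and not its splicing, which was not analysed here.

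Promoter sequences were searched for known elements of this response. The 10 genes were chosen by name with their role in the ER known, so the choice and the elements are not independent. The shares below describe the list and are no test, and the counts of the whole table include the 10 genes. The ER stress response element (ERSE) is the classical site through which ATF6 and XBP1 act with NF-Y: a CCAAT box and, after 9 bases of any kind, the letters CCACG. The ERSE-II variant has ATTGG and, after 1 base of any kind, CCACG. Both strands were searched in the RefSeq promoters of build GRCh38.p14, from 250 bases before to 50 after each start site, and all 10 genes were in that table. An ERSE was found in 4 of the 10 promoters, those of XBP1, HSPA5, HSP90B1 and CRELD2, against 22 of 27305 promoters (0.0806%) in the whole table. An ERSE-II was found in 2, SDF2L1 and HERPUD1, against 15 (0.0549%) in the table. The core of the UPRE, another XBP1 site, TGACGTGG, was in 0 of the 10 and in 217 promoters (0.795%) of the table. The short parts CCAAT and CCACG lie inside these elements and, searched alone, were each present in all 10 promoters, and in 35.7% and 37.9% of the table. The stretches with a match are shown 5′ to 3′ on the gene's strand, because they carry the shared element, with the match in capitals. XBP1 is at chr22:28800588-28800636 on the minus strand, HSPA5 at chr9:125241376-125241424 on the minus strand, HSP90B1 at chr12:103930201-103930354 on the plus strand and CRELD2 at chr22:49918539-49918587 on the plus strand. SDF2L1 is at chr22:21642099-21642139 and HERPUD1 at chr16:56932010-56932050, both on the plus strand.
XBP1: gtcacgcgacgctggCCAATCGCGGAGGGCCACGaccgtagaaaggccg
HSPA5: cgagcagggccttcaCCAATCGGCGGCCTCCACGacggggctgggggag
HSP90B1: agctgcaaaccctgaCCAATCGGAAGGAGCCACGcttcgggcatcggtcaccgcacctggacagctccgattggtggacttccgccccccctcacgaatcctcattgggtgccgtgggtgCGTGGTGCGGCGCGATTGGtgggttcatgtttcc
CRELD2: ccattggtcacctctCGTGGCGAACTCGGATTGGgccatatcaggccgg
SDF2L1: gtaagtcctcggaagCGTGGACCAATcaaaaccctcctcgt
HERPUD1: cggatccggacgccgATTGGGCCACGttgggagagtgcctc

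Relative to the start site, the ERSE of XBP1 ran from -52 to -34 and that of HSPA5 from -66 to -48. HSP90B1 held 2, from -194 to -176 and, on the opposite strand, from -89 to -71. The CRELD2 element, from -80 to -62, was on the opposite strand too. The ERSE-II of SDF2L1 ran from -188 to -178 on the opposite strand and that of HERPUD1 from -117 to -107. A match in letters is a description of the sequence and does not show binding, and the absence of a match in MANF, DNAJB9, DNAJC3 and PDIA4 speaks only of these letters in this window.

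**Figure D1:**
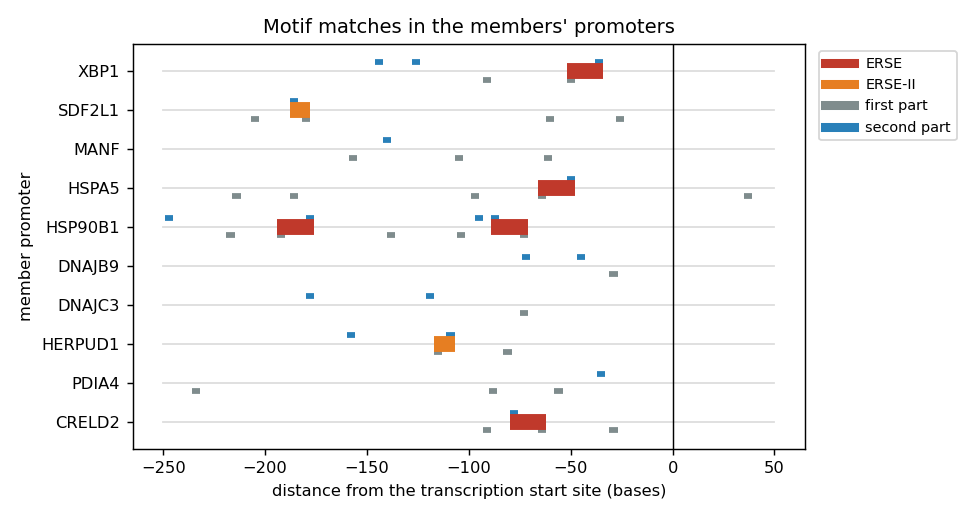
Positions of motif matches in the promoters of the 10 genes, in bases from the transcription start site, 1 line per gene. Red blocks are ERSE matches (4 promoters, 2 of them in HSP90B1), orange blocks ERSE-II (SDF2L1 and HERPUD1), and small grey and blue blocks the first and second part found singly or inside them. The elements lie within the 250 bases before the start.

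All 10 genes were measured and all had a lower signal with Glivec by the probe set that represents them, the one of highest mean signal. Their median log2 ratio, Glivec over untreated, was -0.55, and that of all 12705 measured genes was 0.10. Signals were scaled by the array software, and values under 13.7, the median of all signals, were raised to that floor before ratios were taken. A gene was measured if at least 1 array exceeded the floor. XBP1 and SDF2L1, 2 of 10, were at least 2-fold lower, a share that was 2.63% among all measured genes. At least 1.5-fold lower were 5 of 10, beside 8.33% of all genes. In the other direction 0 of 10 were 2-fold higher, beside 3.13% of all genes, and 0 of 10 were 1.5-fold higher, beside 13.5%. Ratios below 0 were found in 41% of all genes. With 10 genes chosen with earlier results of these arrays known, these shares describe the list and are no test. In RNA from a whole culture, less message per cell and fewer cells that hold it cannot be told apart.

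The files hold one measure of error, how far the ratios of probe sets to the same gene scatter, and this takes in nothing of the variation from culture to culture. The pooled SD of that scatter on the log2 scale was 0.325 over 5603 genes, 0.329 in the signal class of SDF2L1, 0.292 in that of DNAJB9 and PDIA4, and 0.271 in the brightest class, which holds the other 7 genes. The 10 genes had 20 probe sets of a single symbol. Of these, 18 were above the floor on both arrays, 17 of the 18 with a lower signal under Glivec and 6 at least 2-fold lower. Among all 21073 such probe sets 43.9% were lower and 2.49% at least 2-fold lower. Several of the 6 belong to DNAJC3 (-1.45, -1.33 and -1.69), whose representing probe set was at -0.29. Probe sets of the same gene are not separate observations, so these counts are no test either.

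**Figure D2:**
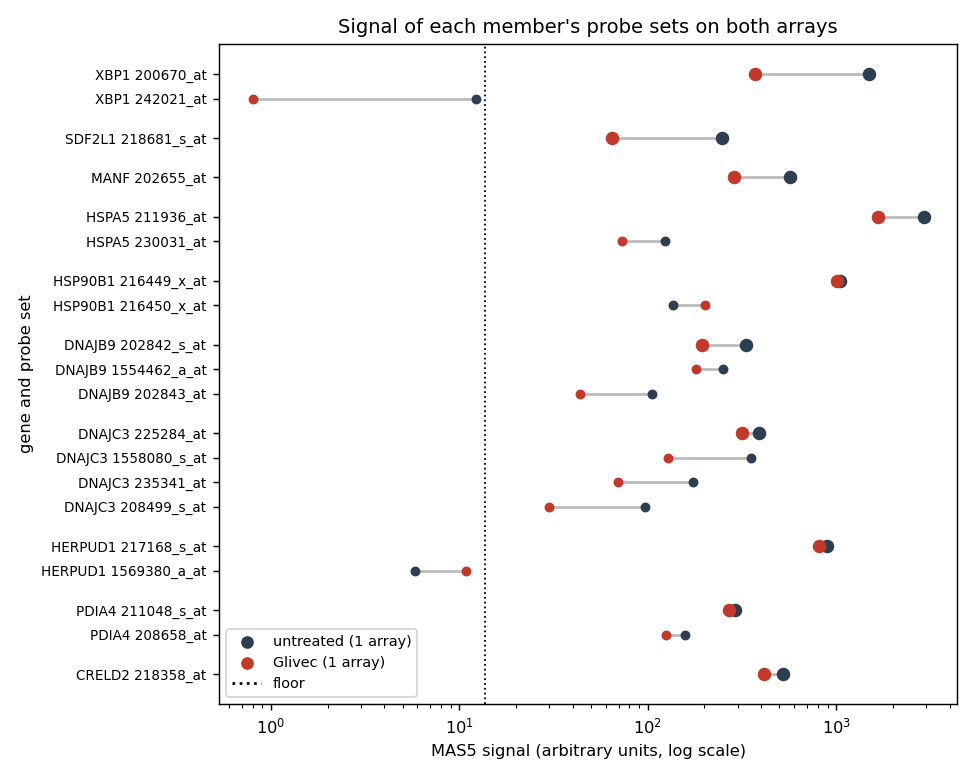
MAS5 signal (arbitrary units, log axis) of all 20 probe sets on the untreated array (dark) and the Glivec array (red), 1 array each. Large points mark the probe set that represents the gene and the dotted line is the floor of 13.7. The widest separation above the floor is that of XBP1, from 1497 to 370.1, while the large points of HSP90B1, HERPUD1 and PDIA4 almost coincide.

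XBP1, the transcription factor of the group, had a signal of 370.1 with Glivec and 1497 in untreated cells. It was 4.05-fold lower, a log2 ratio of -2.02, which ranked 35 from the lowest of 12705 measured genes. The difference was several times the probe-set SD of 0.271. A second XBP1 probe set was under the floor on both arrays, at 0.801 with Glivec and 12.3 without, and gives no ratio. XBP1 therefore rests on 1 probe set.

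SDF2L1, a small ER protein that works with the HSPA5 chaperone and its J-domain partners, stood beside XBP1. Its signals were 64.7 with Glivec and 246.6 without, 3.81-fold lower at a log2 ratio of -1.93, rank 42 from the lowest. MANF, an ER-resident and secreted protein that binds HSPA5, had signals of 286.7 and 572, a log2 ratio of -0.996. At 1.995-fold it lay just outside the 2-fold threshold, and under 3 alternatives it lay inside. SDF2L1, MANF and CRELD2 had 1 probe set each, so none of these can be checked against another.

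HSPA5 encodes BiP, the main HSP70 chaperone of the ER and the usual readout of ER stress. Its brighter probe set read 1670 with Glivec and 2920 without, 1.75-fold lower at -0.81. The dimmer one read 72.8 and 123, 1.69-fold lower at -0.76. The 2 ratios differed by 0.050, less than the probe-set SD.

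DNAJB9 and DNAJC3 encode J-domain partners of BiP, and DNAJC3 (p58IPK) also restrains the PERK kinase. All 3 DNAJB9 probe sets were lower with Glivec. They read 194.2 against 331.6, 179.6 against 251.1 and 43.9 against 104.8, which gives log2 ratios of -0.77, -0.48 and -1.26. The DNAJC3 probe sets disagreed in size but not in direction. The brightest read 318.3 with Glivec and 389.4 without, a ratio of -0.29. The other 3 read 128.9 against 352.4, 69.5 against 174.9 and 29.9 against 96.5, with ratios of -1.45, -1.33 and -1.69. The range of 1.40 between them is well beyond the probe-set SD, and the mean over the 4 probe sets, -1.19, would place DNAJC3 among the genes at least 2-fold lower. Which transcript forms the probe sets read was not analysed here.

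CRELD2, an ER stress-induced protein with disulfide-exchange activity, had signals of 412.7 and 520.5 and a log2 ratio of -0.33, little more than 1 SD. PDIA4, a disulfide isomerase, read 269.9 with Glivec and 290.7 without (-0.11) by one probe set and 125.7 and 157.9 (-0.33) by the other. HERPUD1, which assembles the ER degradation machinery, had signals of 815.6 and 898.8 and a ratio of -0.14. Its second probe set was under the floor on both arrays, at 10.8 and 5.80. The ratios that represent PDIA4 and HERPUD1 were both smaller than the probe-set SD.

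HSP90B1 encodes GRP94, the HSP90 chaperone of the ER. Its usable probe sets both carry the suffix for cross-hybridisation (_x_at), so related sequences may contribute. One read 1013 with Glivec and 1049 without (-0.05), and the other was higher, at 201.8 and 135.8 (0.57). It was the 1 probe set above the floor, of 18, that was higher. A further 2 probe sets, without that suffix, list HSP90B1 together with the microRNA gene MIR3652 and were not used, so the values given rest on cross-hybridising probe sets alone and the unused ones may read the gene more cleanly. The direction of HSP90B1 is thus unsettled, and its mean over both probe sets was 0.26.

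**Figure D3:**
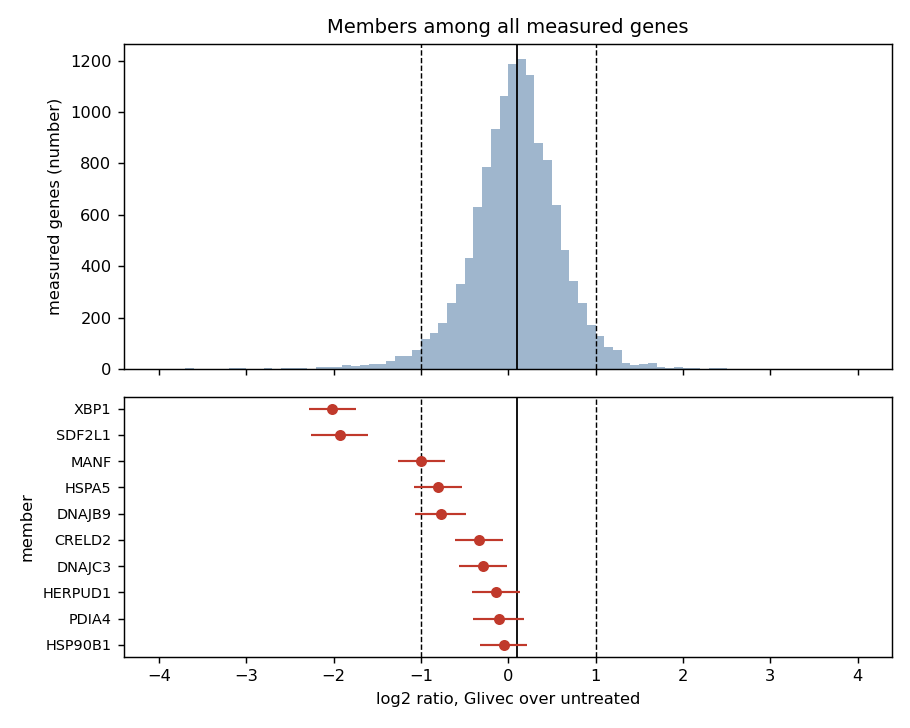
Top, number of measured genes (12705) by log2 ratio of Glivec over untreated signal. Bottom, the ratio of each of the 10 genes, with bars of 1 probe-set SD of its signal class. The solid line is the median of all genes (0.10), dashed lines mark 2-fold, and the genes run from XBP1 at -2.02 to HSP90B1 at -0.05.

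The order of the ratios set XBP1 and SDF2L1 apart from the rest: they differed from each other by less than 1 SD, and MANF, the next gene, lay at -0.996. MANF, HSPA5 and DNAJB9 followed within 1 SD of each other, between -0.996 and -0.77. CRELD2, DNAJC3, HERPUD1, PDIA4 and HSP90B1 lay between -0.33 and -0.05, where neighbours in the order differed by less than 1 SD. The place of DNAJC3 hung on the choice of probe set. An ERSE or ERSE-II was found in XBP1 (-2.02), SDF2L1 (-1.93), HSPA5 (-0.81), CRELD2 (-0.33), HERPUD1 (-0.14) and HSP90B1 (-0.05). The direction of HSP90B1 is unsettled, and any relation of element and ratio was not tested.

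The genes whose pair of signals was nearest to that of XBP1, by Euclidean distance on the log2 scale over the 2 arrays, were TRIM16, NOP16, NIFK, NDUFAF4 and DCUN1D5. TRIM16 was at a distance of 0.34, with signals of 303.6 and 1699. The other 4 were at 0.50 to 0.58, with log2 ratios from -1.61 for NOP16 to -1.21 for DCUN1D5. With 2 arrays this likeness says only that both signals were of similar size, and probe sets of different genes do not share a scale of abundance.

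Upstream of the group, 11 genes for the stress sensors and the enzymes that process them were measured, with a median of -0.01. Of these, 0 were 2-fold lower and 0 higher, beside 2.63% and 3.13% of all genes, so the counts are near the background. ATF6 read 257.1 and 258 (-0.01), and EIF2AK3 190.2 and 196.2 (-0.04). RTCB, the ligase that joins spliced XBP1 mRNA, read 521.6 and 635.6 (-0.29). ERN1 was higher with Glivec by its brightest probe set, 172.3 against 101.5 (0.76), and at -0.31 and 0.75 by 2 others. CREB3L4, a related membrane-bound factor, had the largest ratio of the list, 0.90.

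Other ER genes mostly lay within 2-fold. In 5 lists that cover the rest of ER folding, disposal, entry and exit, 122 genes were measured, of which 3 were at least 2-fold lower and 1 higher, with a median of -0.04. These shares, 2.46% and 0.82%, were near or below those of all genes. Among other chaperones (20 measured, median 0.03), 1 was lower and 1 higher. The collagen chaperone gene SERPINH1 was 3.53-fold higher from a signal near the floor (52.5 against 14.9), and FKBP14, a prolyl isomerase gene, was 2.29-fold lower by one dim probe set and at 0.02 and 0.53 by others. CRELD1 was at 0.86. Calreticulin (CALR) and calnexin (CANX), whose promoters also held an ERSE, were at 0.14 and 0.12, while DNAJB11, another BiP partner, was at -0.63.

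Among disulfide-exchange genes (18 measured, median -0.10) 0 were 2-fold different in either direction. Among all genes 2.63% were lower and 3.13% higher, so this count is near the background. The peroxiredoxin gene PRDX4 was at -0.80, the oxidase gene ERO1A at -0.63 (-0.69 and -0.35 by others) and P4HB, the archetypal disulfide isomerase, at 0.57 (0.63 and 1.04 by others). Of 23 ER-associated degradation genes (median -0.09), SELENOS, a membrane protein that recruits the VCP ATPase, was 2.13-fold lower, with signals of 306.7 and 654.6. The ubiquitin-conjugating enzyme gene UBE2G2 was at -0.61 and HERPUD2, the paralogue of HERPUD1, at 0.52.

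Among 35 translocation and glycosylation genes (median -0.02) SRPRB, a subunit of the signal recognition particle receptor, was 2.11-fold lower (151.4 against 319; -0.78 and -0.66 by others). DAD1 and SRP19 were at -0.88 each. The translocon genes went both ways, with SEC61A1 and SEC61B at -0.31 and -0.21 and SEC61A2 and SEC62 at 0.36 and 0.47. Of 26 genes of ER exit and retrieval (median 0.08) 0 were 2-fold different, beside 2.63% of all genes lower and 3.13% higher. KDELR3 was at least 1.51-fold higher, its untreated signal lying under the floor, SAR1B was at -0.59 (-0.82 to 0.0022 by 4 others) and the retrieval receptor gene KDELR1 at 0.59 (0.64 by another).

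**Figure D4:**
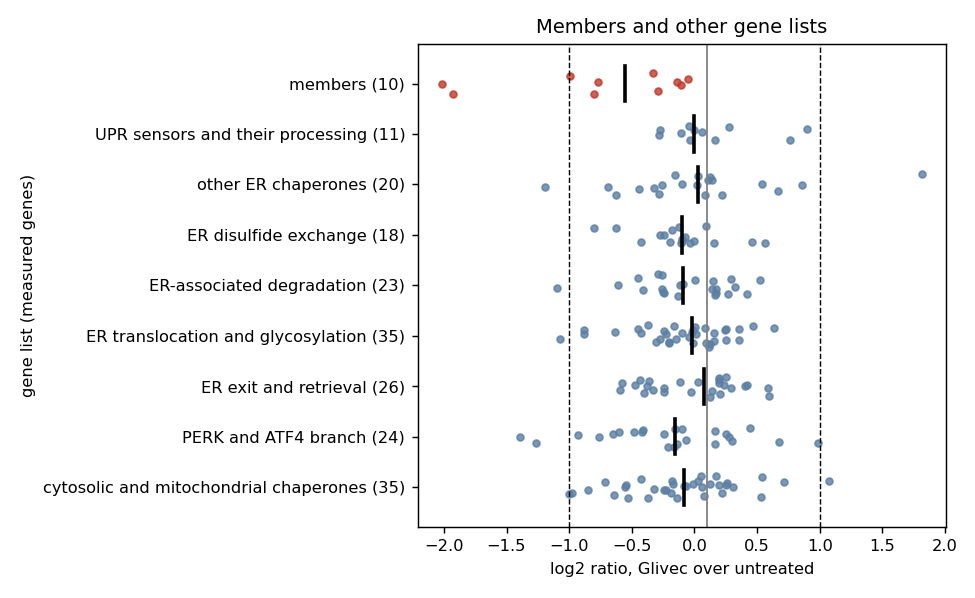
Log2 ratio of every measured gene in the group of 10 (red) and in 8 other gene lists (blue), with the number measured in brackets and vertical scatter only to separate points. Black bars are list medians, the grey line is the median of all genes and dashed lines mark 2-fold. The median of the red points is -0.55, and the medians of the other lists lie between -0.16 and 0.08.

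The nearest groups by function were the PERK and ATF4 branch of the stress response and the chaperones of cytosol and mitochondria. In the ATF4 branch 24 genes were measured, with a median of -0.16, 2 at least 2-fold lower and 0 higher. The share at least 2-fold lower was 8.33%, beside 2.63% of all measured genes. At least 1.5-fold lower were 6 of the 24, beside 8.33% of all genes, and 2 were 1.5-fold higher, beside 13.5%. In this list 66.7% of the ratios were below 0, beside 41% of all genes. The amino acid transporter gene SLC7A5 was 2.62-fold lower and TRIB3, which encodes a pseudokinase, 2.40-fold, or at -0.55 by its other probe set. PPP1R15A (GADD34), the phosphatase subunit that reverses PERK signalling, was higher, at 0.98 and 1.18 by its 2 probe sets. ATF4 itself was at -0.15 and DDIT3 (CHOP) at 0.28. Of 35 measured chaperone genes outside the ER (median -0.08), 1 was 2-fold lower and 1 higher. These shares, 2.86% each, were near those of all genes, 2.63% and 3.13%. FKBP4, an HSP90 partner, was just past 2-fold lower (354.6 against 710.8), or at -0.80 and -0.55 by others. DNAJB4 was 2.10-fold higher, or at 0.59. HSPA4L was at -0.98. HSP90AA1 and HSP90AB1, the cytosolic relatives of HSP90B1, were at 0.25 and 0.30. The lists differed in size and were chosen with earlier results known, so their medians and shares are set side by side without a test.

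Facts of the arrays bear on all ratios. Over all measured genes 334 were at least 2-fold lower and 398 higher, so that 54.4% of these were higher. That share was 42.2% with quantile normalization, 37.8% with median centring, 33.7% after loess and 1.70% when arrays were scaled to 18 hybridisation spike-in probe sets. The spike-ins had a median log2 ratio of 0.74 (0.42 to 0.89), and with this scaling the median over all genes was -0.59 in place of 0.10. Every ratio here is therefore relative to the bulk of genes. Under each of these 4 scalings all 10 genes kept a negative ratio and lay below the median of all genes. Median centring and spike-in scaling lower all 10 ratios by a common amount, so under these the signs could not have turned. Median centring moves every gene alike, so the place below the median was fixed under it as well. For GAPDH the ratio of 3′ to 5′ signal was 1.04 on the Glivec array and 0.925 on the other, and for ACTB it was 1.23 and 1.17. Its part in the ratios was not tested. Of 10 eosinophil markers 5 were measured: PRG2 (6302 and 4744), RNASE2 (2872 and 2146) and CEBPE were above the floor on both arrays, CLC and EPX on 1, while PRG3, IL5RA and SIGLEC8 were under it on both. Of 7 plasma cell markers, listed because such cells are rich in XBP1, 5 were measured and 1 of these, JCHAIN, was below 0 (-0.29). PRDM1 was at 0.58, MZB1 at 0.24 and IRF4 at 0.17. SDC1, above the floor on the Glivec array alone, was at 0.54 or more, a bound set by the floor, and TNFRSF17 and POU2AF1 were under the floor on both. Of 6 T cell markers 1 was measured, CD3E, on the untreated array alone (21.0 against 9.48).

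**Figure D5:**
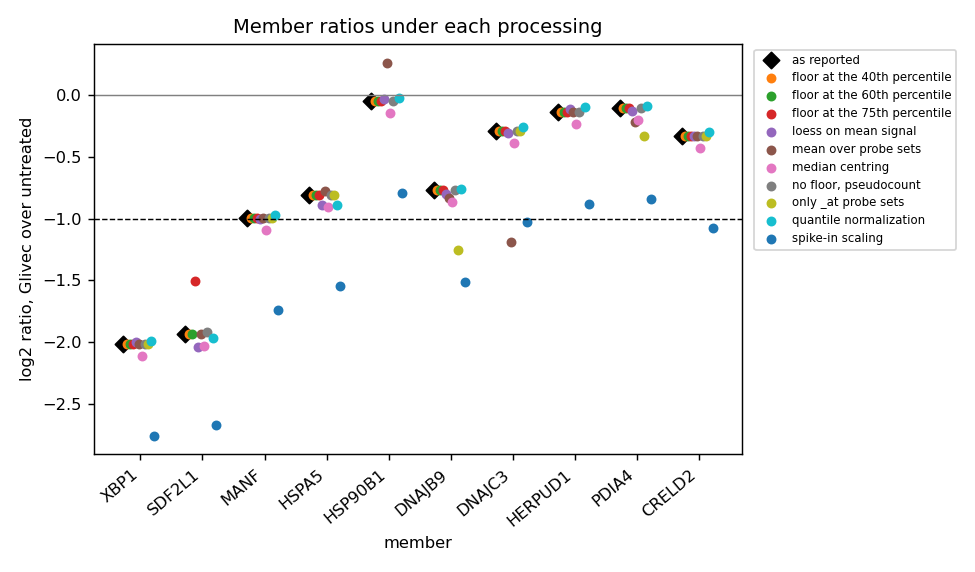
Log2 ratio of each of the 10 genes as reported (black diamonds) and under each of 10 processing alternatives (coloured points), with the dashed line at 2-fold lower. XBP1 lies between -2.75 and -1.99 in all of them. Spike-in scaling gives the lowest value of each gene except DNAJC3, and the one point above 0 is HSP90B1 averaged over probe sets (0.26).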

How the data were processed

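Total RNA of 1 Glivec-treated and 1 untreated EOL-1 culture was biotin-labelled and put on 1 Affymetrix array each, per the labels. The deposited table holds linear signal intensities for 54675 probe sets, made by the authors with MAS5 (no version stated), per the submitters' processing notes. The mean without the lowest and highest signals was 100.014 on both arrays, so they had been scaled to a common level. The number of arrays limits the precision.

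Probe sets with 1 symbol (41097) were named from the platform annotation, and the NCBI gene table of GRCh38.p14 matched 41043 and changed 0 symbols. Signals were floored at their median (13.7) and log2 ratios were taken. Each gene took the value of its probe set with the highest mean signal, with _x_at used only where no other existed. Named genes are all 10 members with every probe set, in each of 8 lists all genes at least 2-fold different, or the 3 of largest ratio in size where fewer than 3 were, and the 5 nearest to XBP1. Other genes in the text (ATF6, EIF2AK3, CALR, CANX, DNAJB11, SEC61A1, SEC61A2, SEC61B, SEC62, ATF4, DDIT3, HSP90AA1, HSP90AB1) and genes with an ERSE were added for their known role or motif after values were seen. The members, lists and alternatives were chosen with earlier results of these data known.

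Alternatives were 4 scalings (quantile, median centring, loess with span 0.3, spike-ins), a floor at the 40th, the 60th or the 75th percentile, a pseudocount of 0.646 in place of the floor, averaging all probe sets of a gene, using _at probe sets alone, and thresholds of 1.5-fold and 3-fold. The code was run on signals simulated from the untreated array, with less noise than the probe-set scatter and with changes larger than most reported here. Spike-in scaling was left out of that run. It checks the arithmetic and does not show how far the ratios can be trusted. Python 3.11.15 with numpy 2.4.6, pandas 2.3.3, statsmodels 0.14.6 and matplotlib 3.10.9 was used.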

Additional observations from a re-analysis of the deposited data

How the results depend on the processing

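No paired analysis was possible because there is 1 array per group, and for the same reason no replicate could be left out. XBP1 was at least 2-fold lower under all 10 alternatives other than the thresholds, and SDF2L1 under the 9 that measured it. The other floors, the mean over probe sets and the _at setting left XBP1 at -2.02, so they are no check of it. Median centring and spike-in scaling could only lower it. SDF2L1 likewise stayed at -1.93 with the floor at the 40th or the 60th percentile and with the mean over probe sets. With only _at probe sets SDF2L1, HERPUD1 and HSP90B1 had no value. The number of genes of the group at least 2-fold lower stayed at 2 or 3 of those measured except with spike-in scaling and at the 1.5-fold threshold. With spike-in scaling it was 7 of 10, beside 2484 of the 12838 genes measured there. At the 1.5-fold threshold it was 5 of 10, beside 8.33% of all genes. MANF joined with median centring, loess and spike-in scaling, DNAJC3 (-1.19) with the mean over probe sets, and DNAJB9 (-1.26) with only _at probe sets. With the floor at the 75th percentile the Glivec signal of SDF2L1 lay under the floor, and its ratio, then a bound, was -1.50. The median of the group lay between -0.81 and -0.53 under 9 alternatives and was -1.29 with spike-in scaling. That scaling shifts nearly every gene alike. It gave medians of -0.74 for the stress sensors, -0.71 for other ER chaperones, -0.84 for disulfide exchange, -0.83 for ER-associated degradation, -0.78 for translocation and glycosylation, -0.66 for ER exit and retrieval, -0.89 for the PERK and ATF4 branch and -0.85 for chaperones outside the ER.

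Over all genes, 398 were higher and 334 lower as reported. Higher were 735, 234 and 91 with the floor at the 40th, the 60th and the 75th percentile, 232 after loess, 43 with spike-in scaling, 2408 with the pseudocount, and 1711 and 56 at thresholds of 1.5-fold and 3-fold. Lower were 176 with the floor at the 75th percentile, 2484 with spike-in scaling, 1848 with the pseudocount, and 1058 and 86 at the 2 other thresholds. Under the alternatives not named for a direction, 272 to 321 genes were higher and 262 to 459 lower. Beyond what a setting's own construction shows, the cause was not tested.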

Other observations

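Outside the group of 10, 18 promoters held an ERSE, and 10 of their genes were measured. Of these, 3 had a ratio below 0, 0 were 2-fold lower and 0 were 2-fold higher, beside 41%, 2.63% and 3.13% of all measured genes, so these counts are near the background. The largest decrease in this set was in FICD, which encodes the enzyme that adds AMP to BiP, with signals of 39.9 with Glivec and 73.9 without (-0.89). The highest ratio was that of ALG12, a mannosyltransferase gene of N-glycan synthesis, at 0.67. SERP1, a small partner of the translocon, was at -0.13 by its brightest probe set, and the initiation factor gene EIF2A at 0.21. TRIM5, ZNF17 and TMEM120A were at 0.51, 0.37 and 0.14, and ERO1B at -0.20.

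In 2 cases a pair of genes on opposite strands shared the same element at one position in the genome. CRELD2 (412.7 with Glivec and 520.5 without, -0.33) shared it with ALG12 (71.2 and 44.9, 0.67). SERP1 (2221 and 2433, -0.13) shared it with EIF2A (2045 and 1767, 0.21). In both pairs the signs differed, though the ratios of the second pair were smaller than the probe-set SD. With 1 array per group these differences were not tested.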
